A study of Mus musculus with 12 samples.

Results

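The Ly6 and uPAR family genes encode small surface proteins built on the same cysteine-rich fold, most of them held in the membrane by a GPI (glycosylphosphatidylinositol) lipid anchor. The 8 members described here are Ly6a, Ly6c1, Ly6d, Ly6e, Ly6k, Lypd3, Plaur and Cd59a, found by their names among the 21853 genes of the deposited table. Ly6a encodes Sca-1, the antigen on which the cells were sorted, so its level between sorted populations is a check of the sort and not a finding. The cells were CommaDβ cells, a line of normal mouse mammary epithelium. Sorting by FACS gave Sca-1 positive cells (Sca-high, described by the submitters as basal and undifferentiated with progenitor properties) and Sca-1 negative cells (Sca-low, described as luminal and differentiated). Sca-high cells were also infected with a lentiviral vector from which doxycycline induces miR-34a, and were analysed after 24 h of doxycycline (Sca-high 34a) or without it (Sca-high NT). Each of the 4 groups had 3 RNA-seq libraries, and whether they are separate cultures is not stated, so that the spread behind the p-values may be technical. No group received doxycycline without the miR-34a vector, so miR-34a and doxycycline cannot be told apart, and neither can the vector, the infection and the handling when Sca-high NT is set against Sca-high.

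Levels are given as RPKM (reads scaled to gene length and library depth), after a further scaling between libraries. A gene was tested if 3 or more libraries had 1 RPKM or more of it, and was called at an adjusted p below 0.01 with a log2 fold change beyond 0.5 in either direction. The libraries held 33668289 to 41828930 reads as recovered from the RPKM steps. Mir34a had 632 to 1137 reads in the Sca-high 34a libraries and 3 to 8 reads in the Sca-high NT libraries, with 0 to 3 reads in Sca-high and 0 to 4 reads in Sca-low libraries, which runs with the titles, while a genotype tag names the infected groups the other way round. Basal and luminal markers ran with the sort labels, with Krt5 at 502 ± 103 RPKM in Sca-high and 31.4 ± 8.02 RPKM in Sca-low libraries, and Krt18 at 8.91 ± 0.796 RPKM in Sca-high and 548 ± 15.2 RPKM in Sca-low libraries (SD, n = 3 each). Library 3 (Sca-high) and library 12 (Sca-high 34a) stood away from their replicates, with a chi-square per gene of 48.9 to 125 in the 4 pairs that include them and 9.61 to 29.1 in the other 8 pairs within groups.

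As background, Plaur encodes the receptor that holds the protease urokinase (Plau) at the cell surface, where it turns plasminogen into plasmin. Lypd3, also called C4.4A, is its close relative in stratified epithelia. Cd59a blocks the pore-forming complex of complement. Ly6a, Ly6c1 and Ly6e are known as interferon-responsive in mouse leukocytes, Ly6d is known from keratinocytes and early lymphocytes, and Ly6k from testis.

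Since miR-34a was induced, the 3′ UTRs of the members were searched for matches to its seed. Sequences are shown for the miRNA and for the family genes in the table that had both a seed match and a level above the minimum, namely Ly6e and, in the same stretch of chromosome 15, Lynx1. The mature miRNA lies at chr4:150068473-150068494 on the plus strand (RefSeq, GRCm38.p6), and its seed, bases 2 to 8, is in capitals.
mmu-miR-34a-5p: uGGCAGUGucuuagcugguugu
The sites are written with the match in capitals, from GENCODE vM21 transcripts on GRCm38, at chr15:74959199-74959227 on the plus strand for Ly6e and chr15:74749212-74749241 on the minus strand for Lynx1.
Ly6e: gcccatggaggACTGCCAcccctccagat
Lynx1: cacagtggcaaCACTGCCAcacagccctac
The Ly6e site is a weaker kind of match, ACTGCCA, which pairs with bases 2 to 7 of the miRNA and has an A after them but no pair for base 8, whereas the Lynx1 site holds the whole seed match with that A. Ly6e held 1 match in a 3′ UTR of 1192 bases, and the other 7 members held none in 3′ UTRs of 90 to 1174 bases. Lynx1 held 1 match in 3379 bases, and Lypd8 held 1 match with at most 5 reads in a library. The matches searched were CACTGCC and ACTGCCA, which 23.3% of the 9843 tested genes with a 3′ UTR held, at a median length of 1186 bases.

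**Figure D1:**
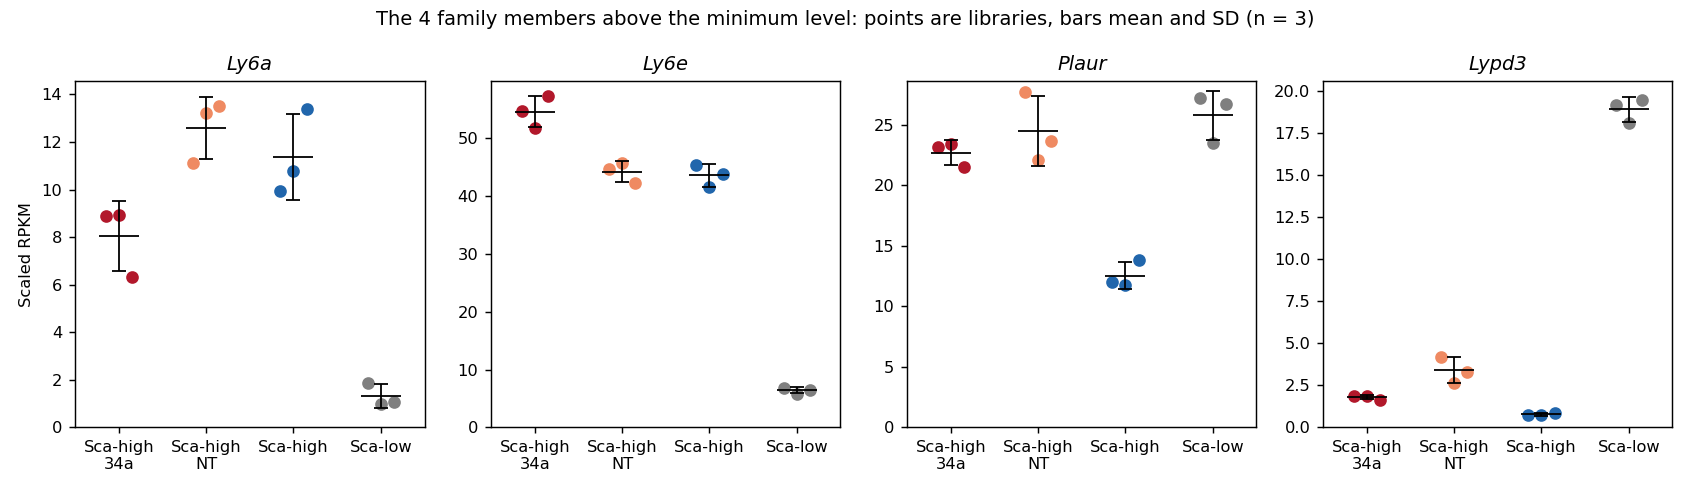
Scaled RPKM (vertical axes, from 0) of Ly6a, Ly6e, Plaur and Lypd3 in the 12 libraries by group, with the mean and SD of 3 libraries as bars. Ly6a and Ly6e were low in Sca-low libraries alone, Plaur was low in Sca-high libraries alone, and Lypd3 averaged 0.771 RPKM in Sca-high and 18.9 RPKM in Sca-low libraries.

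Of the 8 members, 4 passed the filter (Ly6a, Ly6e, Plaur and Lypd3), 3 had reads but stayed under 1 RPKM (Ly6c1, Ly6d and Cd59a), and Ly6k was listed at 0 in all 12 libraries. A count of 0 allows up to 3 reads of Ly6k per library, or 0.0717 to 0.0891 RPM (reads scaled to library depth), for counting error only.

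The first comparison asked how the surface genes of the Sca-high population differ from those of the Sca-low population. Over all 10597 genes tested, 40.3% were called, 19.9% as higher and 20.4% as lower in Sca-high cells, and all 4 tested members, the sort marker among them, were called. The sort marker Ly6a stood at 9.92, 10.8 and 13.4 RPKM in Sca-high libraries, against 1.88, 0.995 and 1.08 RPKM in Sca-low libraries. The groups did not overlap, with 8.64 times the mean level in Sca-high libraries, and the transcript of the sort antigen thus ran with the sort.

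Ly6e, which encodes an interferon-inducible protein that takes part in virus entry, had the highest level of the members in Sca-high libraries, but not in Sca-low libraries, where Plaur and Lypd3 were above it. It was at 45.3, 41.5 and 43.8 RPKM in Sca-high libraries, against 6.89, 5.82 and 6.49 RPKM in Sca-low libraries. The log2 fold change was 2.75 ± 0.0729 (SE, adjusted p = 3.2e-11), close in size to the 3.06 ± 0.215 of Ly6a, although Ly6e was no part of the sort.

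Lypd3 and Plaur went the other way. Lypd3 was at 0.719, 0.719 and 0.876 RPKM in Sca-high libraries, against 19.2, 18.1 and 19.5 RPKM in Sca-low libraries. This is the largest difference of a tested member in the comparison, with a log2 fold change of -4.45 ± 0.137 (adjusted p = 1e-10). Plaur was at 12, 11.8 and 13.8 RPKM in Sca-high libraries, against 27.2, 23.5 and 26.7 RPKM in Sca-low libraries. It fell by 1.04 ± 0.0965 on the log2 scale (adjusted p = 1.8e-06), so that the urokinase receptor was lower in all Sca-high libraries than in any Sca-low library.

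**Figure D2:**
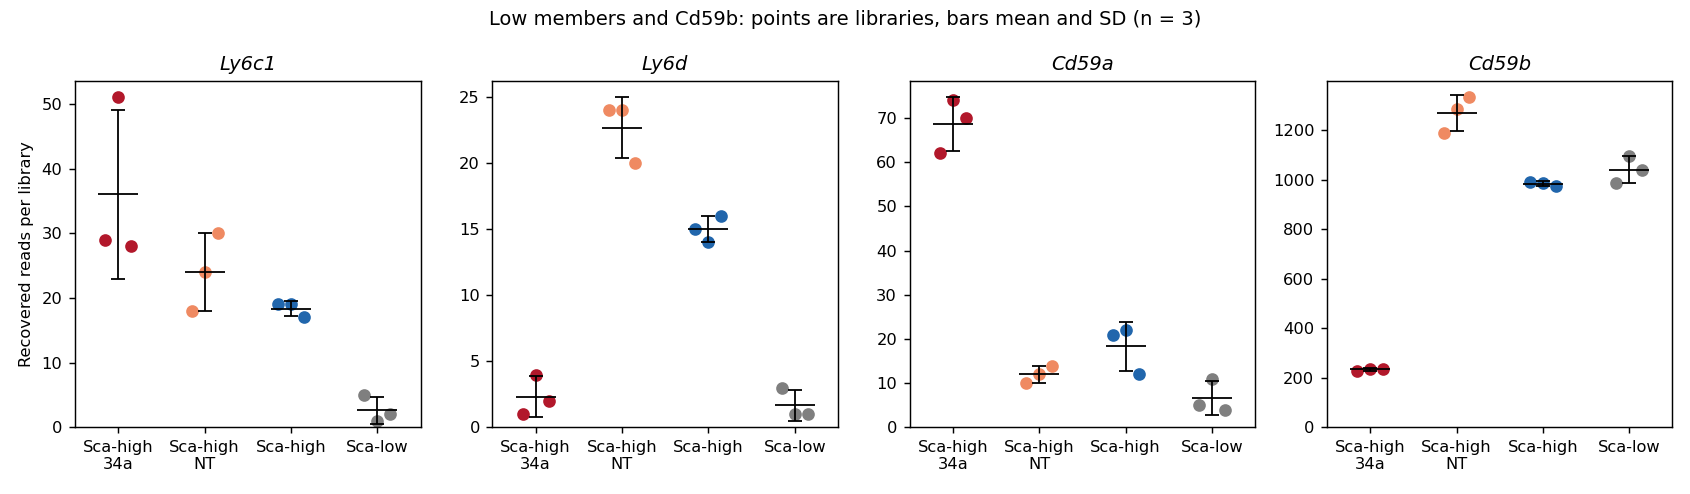
Recovered reads per library (vertical axes, from 0) of the members under 1 RPKM that had reads, Ly6c1, Ly6d and Cd59a, and of Cd59b, by group, with the mean and SD of 3 libraries as bars. Cd59a was highest (62 to 74 reads) and Cd59b lowest (229 to 238 reads) in Sca-high 34a libraries.

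The 3 members under 1 RPKM rest on few reads and were fitted only in 2 alternatives, without the filter and by limma-voom on the recovered reads. Between Sca-high and Sca-low, 42.2% of 14059 genes were called in the limma-voom fit and 29.4% of 18912 genes without the filter. Ly6c1, in mouse a marker of monocytes and of some endothelium, had 19, 19 and 17 reads in Sca-high libraries, against 5, 1 and 2 reads in Sca-low libraries. Its log2 fold change was 2.71 ± 0.528 (limma-voom, adjusted p = 0.00063). Ly6c1 passed the minimum of reads of that fit through groups other than Sca-low, so a call as lower in Sca-high cells was hardly possible. The endothelial list, 10 genes, summed to 0.224 to 0.325 RPKM in Sca-high and 0.247 to 0.259 RPKM in Sca-low libraries, and the immune list, 15 genes, to 1.89 to 2.78 RPKM in Sca-high and 2.14 to 2.75 RPKM in Sca-low libraries. The pan-leukocyte gene Ptprc had 9 to 11 reads in Sca-high and 4 to 6 reads in Sca-low libraries, while the myeloid gene Itgam went the other way, with 7 to 10 reads in Sca-high and 177 to 212 reads in Sca-low libraries. The part of such cells in the reads of Ly6c1 was not tested.

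Ly6d had 15, 14 and 16 reads in Sca-high libraries, against 3, 1 and 1 reads in Sca-low libraries, without overlap. The log2 fold change was 2.88 ± 0.433 (limma-voom, adjusted p = 7.6e-05). Like Ly6c1, Ly6d passed the minimum of reads through groups other than Sca-low, so a call as lower in Sca-high cells was hardly possible. Cd59a had 21, 22 and 12 reads in Sca-high libraries, against 5, 11 and 4 reads in Sca-low libraries. Here the lowest Sca-high and the highest Sca-low library were 1 read apart, and the log2 fold change was 1.37 ± 0.368 (limma-voom, adjusted p = 0.0056).

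In bulk RNA, fewer cells of a type and less RNA per cell cannot be told apart. The differences between the sorted populations were as large without libraries 3 and 12, at a log2 fold change of 2.77 for Ly6e, -4.51 for Lypd3 and -1.08 for Plaur.

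The second comparison asked what changed after 24 h of miR-34a induction. Of all genes tested, 39% were called, 17.5% as higher and 21.4% as lower in Sca-high 34a cells, and of the 4 tested members only Lypd3 was called. Of 14 tested basal markers 10 were called lower and none higher, and the list summed to 877 to 934 RPKM in Sca-high 34a and 2540 to 2780 RPKM in Sca-high NT libraries. Of 11 tested luminal markers 2 were called higher and 1 lower, and that list summed to 35.8 to 40.6 RPKM in Sca-high 34a and 60.3 to 67.6 RPKM in Sca-high NT libraries. The immune list summed to 3.05 to 4.97 RPKM in Sca-high 34a and 14.3 to 19.3 RPKM in Sca-high NT libraries. Most of both sums was S100a8, a gene of neutrophils and of stressed epithelium. It alone averaged 2.65 ± 0.86 RPKM in Sca-high 34a and 15.2 ± 2.56 RPKM in Sca-high NT libraries (SD, n = 3 each). The part of these markers in the members' values was not tested. Lypd3 was at 1.89, 1.88 and 1.66 RPKM in Sca-high 34a libraries, against 4.2, 2.66 and 3.31 RPKM in Sca-high NT libraries. It fell by 0.85 ± 0.137 on the log2 scale (adjusted p = 0.0002), and by 0.73 without libraries 3 and 12.

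Ly6a was at 8.89, 8.92 and 6.34 RPKM in Sca-high 34a libraries, against 11.1, 13.2 and 13.5 RPKM in Sca-high NT libraries. Although the groups did not overlap, the log2 fold change of -0.65 ± 0.215 did not pass (adjusted p = 0.019), and it was -0.42 without libraries 3 and 12 (adjusted p = 0.083). It passed with a pseudocount of 1 (-0.59, adjusted p = 0.0074) and without library 4 of the Sca-low group (-0.65, adjusted p = 0.0031), over a range of 0.0031 to 0.1 in the adjusted p when each library was left out in turn.

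Ly6e, the member with a seed match, was at 54.7, 51.8 and 57.2 RPKM in Sca-high 34a libraries, against 44.7, 45.7 and 42.2 RPKM in Sca-high NT libraries. Each Sca-high 34a library was above each Sca-high NT library, but the log2 fold change of 0.30 ± 0.0729 was under the fold threshold (adjusted p = 0.0033). Plaur was at 23.2, 23.4 and 21.5 RPKM in Sca-high 34a libraries, against 27.7, 22.1 and 23.7 RPKM in Sca-high NT libraries. These groups overlapped, and the log2 fold change was -0.10 ± 0.0965 (adjusted p = 0.37).

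Among the members with few reads, Ly6d and Cd59a moved in opposite directions. Ly6d had 1, 4 and 2 reads in Sca-high 34a libraries, against 24, 24 and 20 reads in Sca-high NT libraries. The log2 fold change was -3.18 ± 0.399 (limma-voom, adjusted p = 1.8e-05, 37.7% of genes called, against 25.8% without the filter), which left the level of Sca-high 34a libraries near that of Sca-low libraries (0.28 ± 0.519 apart on the log2 scale, adjusted p = 0.64). Ly6d passed the minimum of reads through Sca-high NT and Sca-high libraries, so a call as higher in Sca-high 34a cells was hardly possible.

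Cd59a had 62, 74 and 70 reads in Sca-high 34a libraries, against 10, 12 and 14 reads in Sca-high NT libraries. The log2 fold change was 2.47 ± 0.28 (limma-voom, adjusted p = 7.4e-06). Its neighbour and close copy Cd59b, which encodes the same kind of complement inhibitor, was at 2.05, 2.13 and 2.04 RPKM in Sca-high 34a libraries, against 11.2, 11.3 and 12.2 RPKM in Sca-high NT libraries. Cd59b fell by 2.42 ± 0.0666 on the log2 scale (adjusted p = 4.6e-11), so the 2 copies changed in opposite directions. Of the reads of both copies, Cd59a held 206 of 911 (22.6%) in the Sca-high 34a group, 36 of 3846 (0.936%) in Sca-high NT, 55 of 3011 (1.83%) in Sca-high and 20 of 3145 (0.636%) in the Sca-low group. Their coding sequences in GENCODE vM21 are identical at 302 of 354 aligned bases (85.3%), with a longest shared run of 47 bases. How reads that fit both copies were assigned is not given in the sources used here, so the level of either copy is uncertain to that extent.

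Ly6c1 had 29, 51 and 28 reads in Sca-high 34a libraries, against 18, 24 and 30 reads in Sca-high NT libraries. The groups overlapped, and the log2 fold change was 0.53 ± 0.317 (limma-voom, adjusted p = 0.17).

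The third comparison, Sca-high NT against Sca-high, shows what differed before induction. Of all genes 21.6% were called, 10.4% as higher and 11.1% as lower in Sca-high NT cells, and of the 4 tested members Lypd3 and Plaur were called higher. Of the luminal markers 7 of 11 were called lower and none higher, with log2 fold changes of -1.76 for Krt18 and -1.89 for Epcam, and of the basal markers 3 were called higher and 3 lower. The immune list summed to 14.3 to 19.3 RPKM in Sca-high NT and 1.89 to 2.78 RPKM in Sca-high libraries. S100a8 was higher in Sca-high NT cells (3.81), at 15.2 ± 2.56 RPKM against 1.0 ± 0.27 RPKM in Sca-high libraries (SD, n = 3 each). It thus held most of the immune sum of Sca-high NT libraries. Of the same list Cd68 was called higher too (0.58), whereas Ptprc had 3 to 6 reads in Sca-high NT and 9 to 11 reads in Sca-high libraries. The fibroblast gene Dcn was higher (2.48), but it reached 1 RPKM in Sca-high NT libraries alone and passed the filter through them. A call of Dcn as lower was thus hardly possible. The fibroblast gene Col1a1 went the other way, at 0.0511 ± 0.0103 RPKM in Sca-high NT and 0.472 ± 0.192 RPKM in Sca-high libraries. The part of these markers in the members' values was not tested. Lypd3 was at 4.2, 2.66 and 3.31 RPKM in Sca-high NT libraries, against 0.719, 0.719 and 0.876 RPKM in Sca-high libraries. The log2 fold change was 1.98 ± 0.137 (adjusted p = 4.4e-07), and Lypd3 was also higher in Sca-high 34a than in Sca-high cells (1.14 ± 0.137, adjusted p = 1.5e-05). The Sca-high NT libraries are shared by this comparison and the one on induction.

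Plaur was at 27.7, 22.1 and 23.7 RPKM in Sca-high NT libraries, against 12, 11.8 and 13.8 RPKM in Sca-high libraries. The log2 fold change was 0.96 ± 0.0965 (adjusted p = 1e-05), and the level of Sca-high NT libraries did not differ beyond the threshold from that of Sca-low libraries (-0.08 ± 0.0965, adjusted p = 0.49). Ly6a and Ly6e, the 2 members high in Sca-high cells, had log2 fold changes of 0.15 ± 0.215 (adjusted p = 0.58) and 0.02 ± 0.0729 (adjusted p = 0.8). Neither Ly6c1 (0.36 ± 0.353, adjusted p = 0.42), nor Ly6d (0.58 ± 0.278, adjusted p = 0.1), nor Cd59a (-0.55 ± 0.327, adjusted p = 0.18) was called by limma-voom, with 24.6% of genes called (16% without the filter).

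Over the 4 groups the tested members had different orders. For the 3 comparisons not yet given, 47.5% of genes were called between Sca-high 34a and Sca-high, 38.4% between Sca-high NT and Sca-low and 54.9% between Sca-high 34a and Sca-low cells. Without the filter these were 32.4%, 28.1% and 38.7%, and by limma-voom 47.8%, 40.2% and 54.6%. Ly6a averaged 8.05 ± 1.48 RPKM in Sca-high 34a, 12.6 ± 1.33 in Sca-high NT, 11.4 ± 1.82 in Sca-high and 1.32 ± 0.491 in Sca-low libraries (SD, n = 3 each), and of neighbours in the order of levels only the lowest pair, Sca-high 34a and Sca-low, differed beyond the threshold. Ly6e averaged 54.6 ± 2.68 RPKM in Sca-high 34a, 44.2 ± 1.8 in Sca-high NT, 43.5 ± 1.91 in Sca-high and 6.4 ± 0.541 in Sca-low libraries, and of neighbours only Sca-high and Sca-low differed. Plaur averaged 22.7 ± 1.07 RPKM in Sca-high 34a, 24.5 ± 2.92 in Sca-high NT, 12.5 ± 1.1 in Sca-high and 25.8 ± 2.04 in Sca-low libraries, and of neighbours only Sca-high 34a and Sca-high differed (0.85 ± 0.0965, adjusted p = 8.5e-06). Lypd3 averaged 1.81 ± 0.13 RPKM in Sca-high 34a, 3.39 ± 0.772 in Sca-high NT, 0.771 ± 0.0908 in Sca-high and 18.9 ± 0.749 in Sca-low libraries, and each neighbour in its order (Sca-low, Sca-high NT, Sca-high 34a, Sca-high) differed from the next. Of the members with few reads, Ly6d was lower (-2.60) and Cd59a higher (1.91) in Sca-high 34a than in Sca-high libraries (limma-voom, adjusted p = 0.00011 and 2.4e-05).

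**Figure D3:**
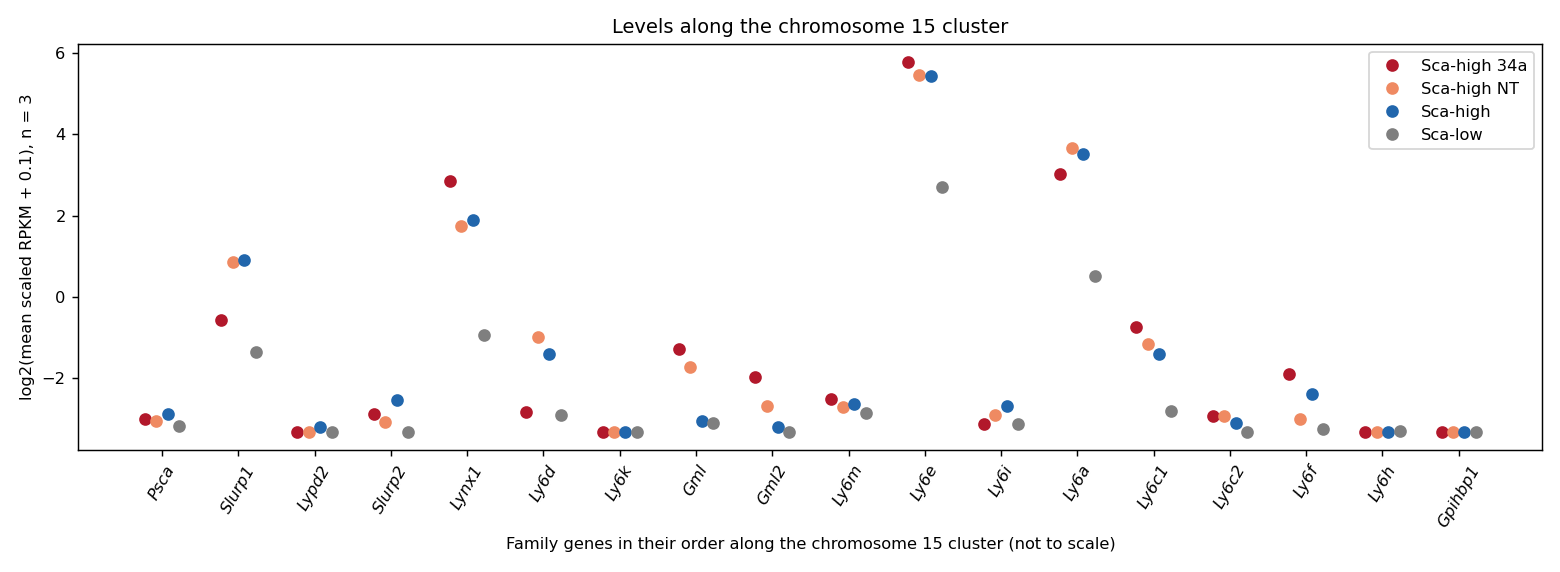
Mean level of the family genes on chromosome 15 in log2(scaled RPKM + 0.1), in the order of the genes along the chromosome (horizontal axis, not to scale), with a point for each group of 3 libraries. Lynx1, Ly6e and Ly6a lay highest, and each was lower in Sca-low than in the other 3 groups.

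The members lie in 3 places of the genome. In the RefSeq annotation of GRCm38.p6, Ly6a, Ly6c1, Ly6d, Ly6e and Ly6k belong to a stretch on chromosome 15 that runs from Psca to Gpihbp1, Plaur and Lypd3 to a stretch on chromosome 7, and Cd59a lies beside Cd59b on chromosome 2. Of the 36 other family genes listed, 34 were in the table, and of these 3 passed the filter, 10 more had 10 or more reads in some library, 16 stayed under 10 reads in every library and 5 had none. The 3 tested were Lynx1, which encodes a modulator of nicotinic acetylcholine receptors, Slurp1, a secreted family protein of skin, and Cd59b.

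Lynx1 was at 3.19, 3.24 and 4.32 RPKM in Sca-high libraries, against 0.492, 0.336 and 0.42 RPKM in Sca-low libraries (log2 fold change 2.83 ± 0.134, adjusted p = 3.8e-09). Slurp1 was at 1.7, 1.6 and 2.01 RPKM in Sca-high libraries, against 0.368, 0.26 and 0.245 RPKM in Sca-low libraries (2.26 ± 0.154, adjusted p = 1e-07). Both were thus higher in Sca-high cells, as were Ly6a and Ly6e of the same stretch, whereas Cd59b had a log2 fold change of -0.11 ± 0.0666 (adjusted p = 0.18). Slurp1 reached 1 RPKM only in Sca-high and Sca-high NT libraries, where it was high, and passed the filter through them.

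In the limma-voom fit, 6 of the 8 family genes of chromosome 15 that had enough reads, the sort marker Ly6a not counted, were called higher in Sca-high cells and none lower, where 20.2% of all genes were called higher and 22% lower. These 6 were Ly6c1, Ly6d, Ly6e, Ly6f, Lynx1 and Slurp1, and the other 2 were Gml and Gml2. On chromosome 7, Lypd3 and Plaur were called lower and Pinlyp higher (2.59 ± 0.428, adjusted p = 0.00017), while Spaca4 was not called (0.73 ± 0.346, adjusted p = 0.08). The stretches were chosen with these values known, so that the counts are a description. The fit took genes with 10 or more reads in 3 or more libraries. Ly6c1, Ly6d, Ly6f, Gml, Gml2 and Pinlyp had at most 5 reads in each Sca-low library, and passed through other groups. A call as lower in Sca-high cells was thus hardly possible for them, so the counts do not compare with the share of all genes. Ly6e, Lynx1 and Slurp1 had 10 or more reads in every library.

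After induction the chromosome 15 genes did not move as a block. Lynx1, whose 3′ UTR holds the other seed match, was at 7.5, 7.62 and 6.4 RPKM in Sca-high 34a libraries, against 3.18, 3.21 and 3.36 RPKM in Sca-high NT libraries (1.11 ± 0.134, adjusted p = 1.7e-05). Slurp1 was at 0.528, 0.69 and 0.505 RPKM in Sca-high 34a libraries, against 2.02, 1.62 and 1.5 RPKM in Sca-high NT libraries (-1.43 ± 0.154, adjusted p = 6.9e-06). In the limma-voom fit, 3 of 9 genes, Ly6a included, were called higher (Lynx1, Ly6f and Gml2) and 2 lower (Ly6d and Slurp1), against 18.9% and 18.8% of all genes. Without the Sca-high 34a libraries, where they were highest, Ly6f and Gml2 would not have passed the minimum of reads. Their calls as higher therefore lean on the filter, and the count does not compare with the share of all genes. Ly6f, a close relative of Ly6a, had 13, 13 and 11 reads in Sca-high 34a libraries, against 0, 2 and 3 reads in Sca-high NT libraries (2.95 ± 0.641, adjusted p = 0.0016).

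Some of these genes are near copies of each other. The coding sequence of Ly6a is identical to that of Ly6i at 86.3%, of Ly6f at 84.6% and of Ly6c2 at 83.5% of aligned bases, and that of Ly6c1 to Ly6c2 at 91.6%, with a shared run of 188 bases. Ly6i had at most 6 reads and Ly6c2 at most 4 reads in a library, while Ly6a had 70 to 972 reads. Ly6a and Ly6c1 are identical at 77.6% of aligned bases, with a shared run of 45 bases. The reads of Ly6c1, 1 to 51 in a library, and of Ly6f, 0 to 13, are therefore uncertain in their assignment between them and their copies, Ly6a among these. Ly6e, by contrast, was identical to Ly6a at only 57.6% of aligned bases, with no shared run above 8 bases.

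**Figure D4:**
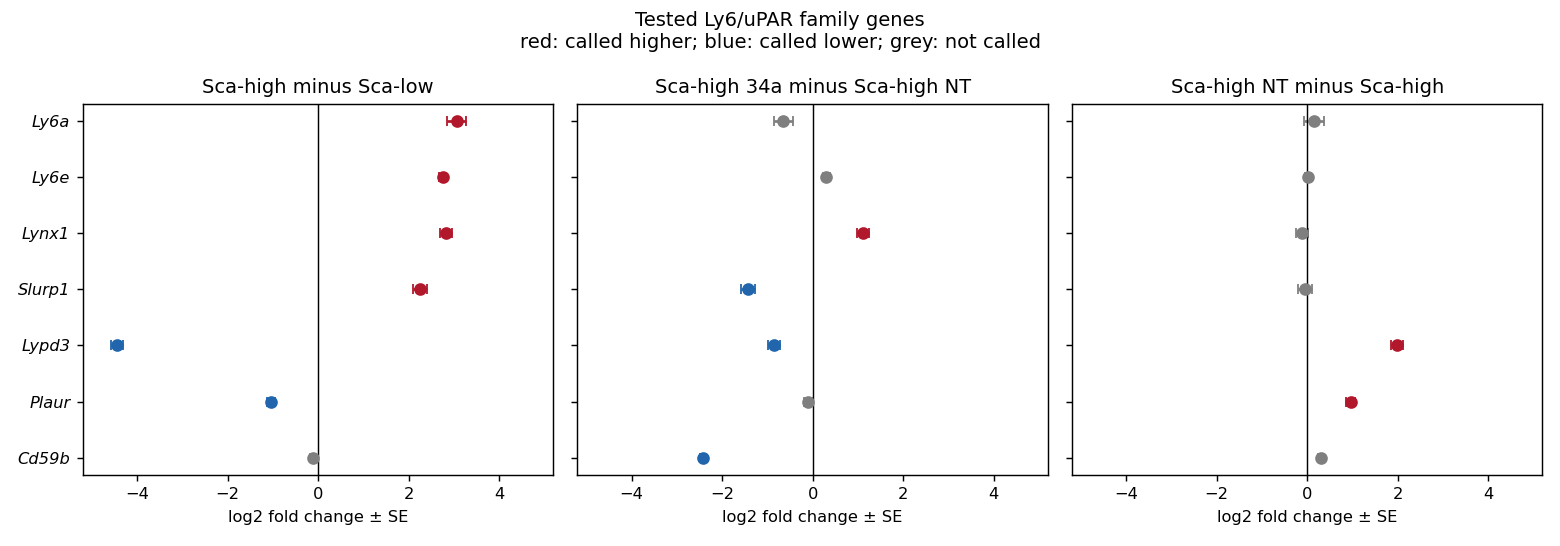
Log2 fold change ± SE (horizontal axes) of the tested family genes in the 3 comparisons, with called genes in red (higher) or blue (lower) and others in grey. Ly6a, Ly6e, Lynx1 and Slurp1 were called higher and Lypd3 and Plaur lower in Sca-high cells when set against Sca-low cells, and Cd59b, Slurp1 and Lypd3 were called lower in Sca-high 34a than in Sca-high NT cells.

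Plaur acts with the other genes of plasminogen activation, of which a list of 21 without Plaur was followed and 16 were tested. Between Sca-high and Sca-low cells 9 were called higher and 5 lower, against 19.9% and 20.4% of all genes. The median log2 fold change was 0.63, against 0 over all genes. Plau, the ligand of Plaur, was at 11.6, 11.3 and 11.6 RPKM in Sca-high libraries, against 21, 20.6 and 20 RPKM in Sca-low libraries, a log2 fold change of -0.84 ± 0.0807 (adjusted p = 2.5e-06). Receptor and ligand were thus both lower in Sca-high cells. Lrp1, an endocytic receptor that takes part in the clearance of urokinase, was higher in Sca-high cells (4.13 ± 0.408, adjusted p = 3e-06). The integrin genes Itgav (1.06 ± 0.213, adjusted p = 0.00094), Itgb5 (1.01 ± 0.0594, adjusted p = 2.7e-08) and Itga5 (1.41 ± 0.249, adjusted p = 0.00038) were higher too.

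Between Sca-high 34a and Sca-high NT cells 2 genes of the list were called higher and 6 lower, against 17.5% and 21.4% of all genes. The median was -0.33, against -0.03 over all genes. Plau was at 25.4, 23.3 and 26.1 RPKM in Sca-high 34a libraries, against 43.7, 34.5 and 38.1 RPKM in Sca-high NT libraries (-0.63 ± 0.0807, adjusted p = 2.9e-05), while Plaur was not called. The largest falls were those of Serpinb2, an inhibitor of urokinase, at 11.1 ± 1.73 RPKM in Sca-high 34a and 274 ± 69.8 RPKM in Sca-high NT libraries (SD, n = 3 each), and of Mmp3, a matrix protease, at 7.67 ± 1.23 RPKM in Sca-high 34a and 147 ± 14.3 RPKM in Sca-high NT libraries. Plgrkt, a plasminogen receptor (0.64 ± 0.0761, adjusted p = 1.5e-05), and Anxa2, which binds plasminogen with S100a10 (0.63 ± 0.0847, adjusted p = 4.2e-05), were higher.

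Between Sca-high NT and Sca-high cells 5 genes of the list were called higher and 1 lower, against 10.4% and 11.1% of all genes. The median was 0.06, against 0.01 over all genes. Plau (1.74 ± 0.0807, adjusted p = 1.9e-08), Plat, the tissue-type activator (1.02 ± 0.118, adjusted p = 3.1e-05), Serpine2 (1.83 ± 0.103, adjusted p = 8.9e-08), Serpinb2 (3.25 ± 0.207, adjusted p = 2.3e-07) and Mmp3 (3.74 ± 0.207, adjusted p = 7.5e-08) rose. Genes of both activators and inhibitors were thus among those higher in Sca-high NT cells, as was Plaur, and Plg, the plasminogen gene itself, had at most 1 read in a library.

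**Figure D5:**
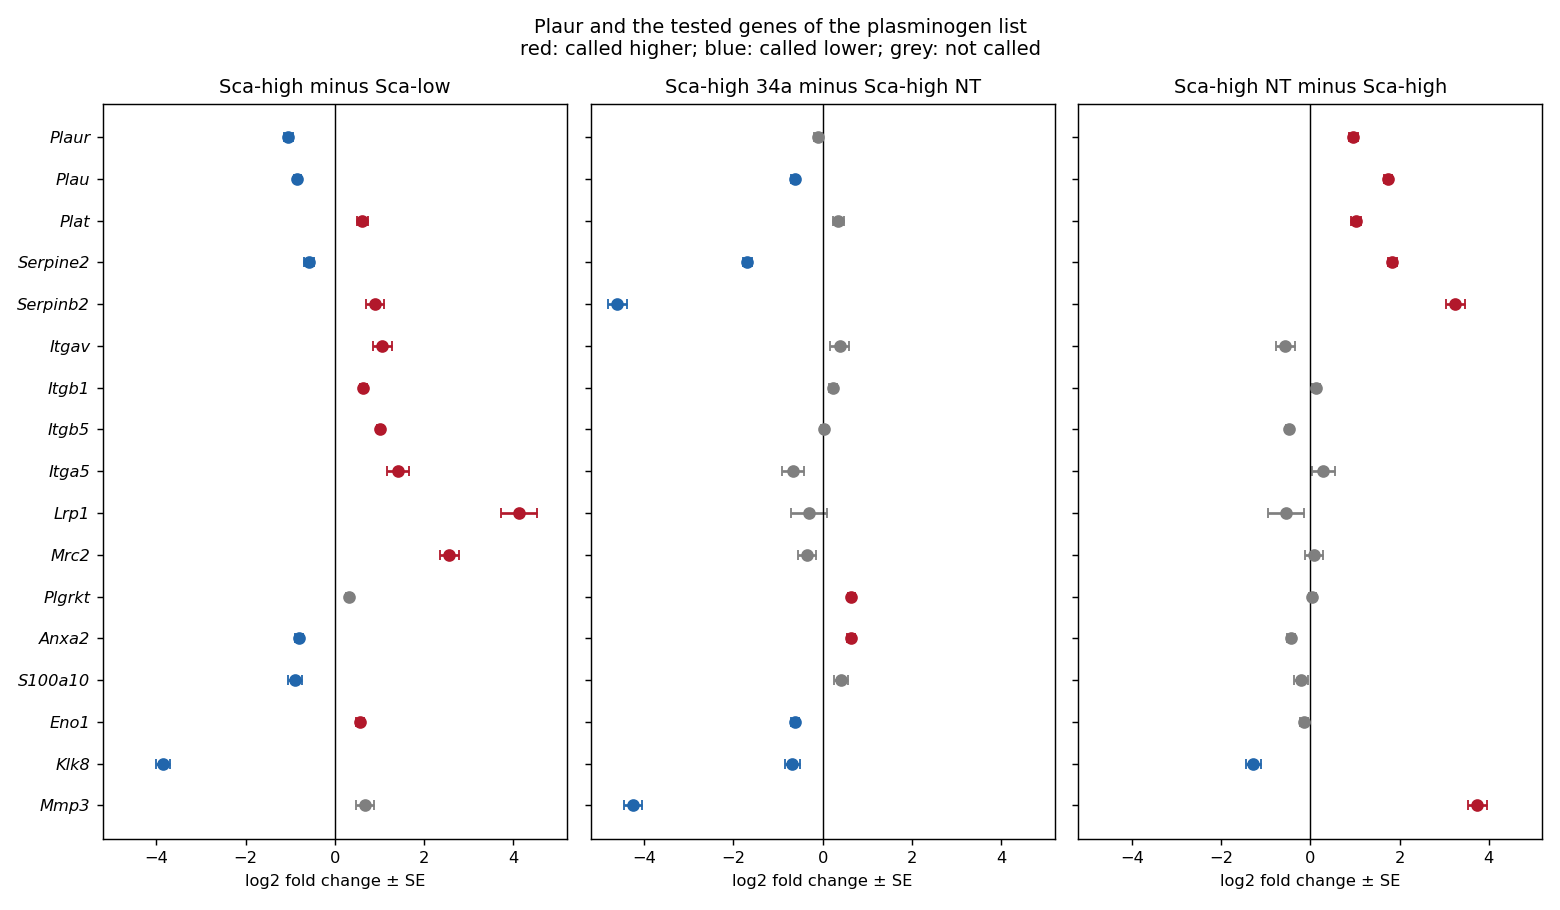
Log2 fold change ± SE (horizontal axes) of Plaur and the 16 tested genes of the plasminogen list in the 3 comparisons, coloured by call as red for higher, blue for lower and grey for not called. Plaur and Plau lay below 0 between Sca-high and Sca-low cells and above 0 between Sca-high NT and Sca-high cells.

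Of the 10 other complement regulators listed, 3 were tested (Cd59b, Clu and Cr1l). Clu, which encodes the secreted chaperone clusterin, was at 0.253, 0.274 and 0.37 RPKM in Sca-high libraries, against 8.38, 8.33 and 8.79 RPKM in Sca-low libraries (-4.44 ± 0.141, adjusted p = 1.3e-10). It reached 1 RPKM in Sca-low libraries alone and passed the filter through them, so a call as higher in Sca-high cells was hardly possible. Clu was called higher in Sca-high 34a than in Sca-high NT cells (0.67 ± 0.141, adjusted p = 0.0013), at means of 0.378 and 0.202 RPKM. Cr1l, the rodent regulator Crry, was called in none of the 3 comparisons, with log2 fold changes of -0.17, 0.15 and 0.00. Cd59b was the only one of the 3 called lower in Sca-high 34a than in Sca-high NT cells.

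Lypd3 was set beside 35 genes of squamous epithelia, of which 23 were tested. Between Sca-high and Sca-low cells 11 were called higher and 7 lower, against 19.9% and 20.4% of all genes, with a median of 0.47, against 0. Among the higher ones were the desmosome gene Dsc3 (3.95 ± 0.142, adjusted p = 3.6e-10) and the cornified envelope gene Sprr1b (3.61 ± 0.21, adjusted p = 2.6e-08), whereas Klk10, a skin protease (-4.50 ± 0.12, adjusted p = 3.4e-11), and the desmosome gene Dsc2 (-4.00 ± 0.127, adjusted p = 1.3e-10) fell, as Lypd3 did. Between Sca-high 34a and Sca-high NT cells 16 fell and none was called higher, against 21.4% and 17.5% of all genes. The median was -1.09, against -0.03 over all genes. Among those that fell were the stress keratin Krt16 (-4.14 ± 0.122, adjusted p = 7.3e-11) and the desmosome gene Dsg3 (-2.20 ± 0.0801, adjusted p = 4.3e-10). Between Sca-high NT and Sca-high cells 10 were called higher and 5 lower, against 10.4% and 11.1% of all genes, with a median of -0.02, against 0.01. Krt17 (3.58 ± 0.154, adjusted p = 1.1e-08) and Sbsn (2.64 ± 0.122, adjusted p = 1.9e-08) were among the higher ones, and the keratin gene Krt13 (-1.79 ± 0.173, adjusted p = 7e-06) and Ppl, which encodes periplakin (-1.62 ± 0.171, adjusted p = 1.4e-05), among the lower ones. Of 7 binding partners listed for Lypd3, 4 were tested, and Lgals3, which encodes galectin-3, was lower in Sca-high cells than in their Sca-low counterparts (-1.92 ± 0.0997, adjusted p = 8.7e-09), whereas the integrin gene Itga6 was higher (0.59 ± 0.0774, adjusted p = 3.6e-05) and the other 2 were not called.

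Since Ly6a and Ly6e respond to interferon in other cells, 30 interferon response genes were followed, of which 22 were tested. Between Sca-high and Sca-low cells 3 were called higher and 16 lower, against 19.9% and 20.4% of all genes. The median was -2.04, against 0 over all genes. The whole list summed to 232 to 283 RPKM in Sca-high and 235 to 286 RPKM in Sca-low libraries. Ifi44 (-4.91 ± 0.124, adjusted p = 2.6e-11) and Irf9, a subunit of the interferon-activated transcription factor (-3.51 ± 0.0909, adjusted p = 2.9e-11), fell. Psmb8, an immunoproteasome subunit (2.95 ± 0.129, adjusted p = 2e-09), and Irf1 (1.04 ± 0.0739, adjusted p = 1.6e-07) were higher. Between Sca-high 34a and Sca-high NT cells 16 were called higher and 1 lower, against 17.5% and 21.4% of all genes. The median was 0.90, against -0.03 over all genes. The whole list summed to 448 to 489 RPKM in Sca-high 34a and 419 to 438 RPKM in Sca-high NT libraries. Irf7, an interferon regulatory factor (2.27 ± 0.125, adjusted p = 1.9e-08), and Ifih1, a sensor of viral RNA (1.83 ± 0.118, adjusted p = 7.3e-08), rose, while Ifit2 fell (-2.20 ± 0.0932, adjusted p = 1.7e-09). Ly6a and Ly6e had -0.65 and 0.30 there and were not called. Between Sca-high NT and Sca-high cells 3 genes of the list were called higher and 3 lower, against 10.4% and 11.1% of all genes. The median was -0.05, against 0.01 over all genes. The sum was thus higher in Sca-high NT libraries, at 419 to 438 RPKM, than in Sca-high libraries, at 232 to 283 RPKM, before induction. The part of interferon in the levels of Ly6a and Ly6e was not tested.

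Promoters, here a window around the start of a gene, were matched in RefSeq (GRCm38.p6) for 4 of the 8 members (Ly6c1, with 2 starts, Lypd3, Plaur and Cd59a). They were searched on both strands for the interferon-stimulated response element (ISRE, a pair of GAAA runs with a short gap), the GAS element TTCNNNGAA, the AP-1 element TGANTCA and a loose form of the NF-kB element, which 3.44%, 8.3%, 7.81% and 50.8% of 32851 promoters hold, in that order. The only match to the ISRE was in Cd59a, 187 bases before the start, and the only match to the AP-1 element was in Plaur, 69 bases before the start, and none held the GAS element. Both are shown with the match in capitals, at chr2:104095604-104095633 for Cd59a and chr7:24462404-24462430 for Plaur, each on the plus strand.
Cd59a: tgtttttaaaGAAAGGGAAAatcaagagcc
Plaur: cccctggagcTGACTCActctttagca
Each of the 5 promoters held the NF-kB element at least once. A match is a description of the sequence and no evidence that a factor binds there.

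The tested genes whose levels were most like those of each member over the 12 libraries were found by the Pearson correlation of log2(scaled RPKM + 0.1), with no test, since the libraries fall into 4 groups and share them. For Ly6a they were Kcnmb4, a potassium channel subunit (r = 0.991), Pdk1, a pyruvate dehydrogenase kinase (0.989), and Cnn2, a calponin (0.989). For Ly6e they were Sipa1l2 (0.998), Pcolce, an enhancer of procollagen processing (0.998), and the Wnt ligand gene Wnt10a (0.998). For Lypd3 they were Cryab, a small heat shock protein (0.991), the adhesion gene Alcam (0.989) and Padi1, an enzyme that citrullinates proteins (0.988). For Plaur they were Ttc39c (0.979), the adhesion gene Pvr (0.977) and Plin2, which coats lipid droplets (0.977).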

How the data were processed

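RNA-seq libraries (TruSeq, from total RNA) of 4 groups of CommaDβ cells were analysed, 3 libraries each, grouped by titles and source names. The authors deposited RPKM, with a value for each gene in each library, and the submitters' notes name TopHat2 2.0.6, the mm9 build and DESeq2. No read counter, annotation or strand setting is named in the sources used here. A deposited mean of normalized reads, a signal averaged over 6 libraries by the authors, served only to recover whole reads from the RPKM steps (99.9% of 196893 values above 0 were whole within 0.1 read). The file also holds the authors' group means, fold changes, p-values and gene selections, which were not used, and 0 columns of single libraries were left out. The 182 genes with no symbol took up to 0.0942% of a library's reads.

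RPKM were scaled by an unweighted trimmed mean of M values (factors 0.9518 to 1.0645). Genes for which 3 or more libraries had 1 RPKM or more (10597) were tested by limma 3.58.1 in R 4.3.3 on log2(scaled RPKM + 0.1), in 1 model with 4 group means (8 residual and 3.29 prior degrees of freedom), and p-values were adjusted by Benjamini-Hochberg over all tested genes. Fold changes on this scale understate the change of low genes. Reads were fitted by limma-voom as an alternative, for genes that passed its own minimum of reads (14059). The fit was tested on simulated data. Python 3.11.15, numpy 2.4.6, pandas 2.3.3 and matplotlib 3.10.9 were used for the rest. For 3′ UTRs the longest of a gene's coding transcripts in GENCODE vM21 was taken, a different build from that of the files.

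The members, lists and tests were chosen with earlier results of these data known. All 8 members are described. From each other list, at most 2 called genes in each direction per comparison, those with the smallest p, were named, and any gene of the plasminogen, complement and family lists could be named. Alternatives covered the scaling, the pseudocount, the filter, the groups in the model, single libraries left out in turn, libraries 3 and 12 left out, the thresholds and the use of recovered reads. The smallest counts limit Ly6c1, Ly6d and Cd59a, and intervals and limits cover counting error only. Protein sequences were not used here, and an item of the plasminogen list is not reported here and was left out of its counts.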

Additional observations from a re-analysis of the deposited data

How the results depend on the processing

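No member changed direction where it was called, and of 516 values of the 4 tested members under the alternatives 511 kept their side of the threshold. Between Sca-high 34a and Sca-high NT cells the count of called members, 1, was 2 with a pseudocount of 1, 1 to 2 with each library left out (2 without library 4, a Sca-low library), and 3 at an adjusted p below 0.05 with no fold threshold, where Ly6a (-0.65) and Ly6e (0.30) were added. In the other comparisons leaving out a library kept the counts, at 4 for Sca-high minus Sca-low, 2 for Sca-high NT minus Sca-high, 2 for Sca-high 34a minus Sca-high, 3 for Sca-high NT minus Sca-low and 3 for Sca-high 34a minus Sca-low. Ly6e between Sca-high 34a and Sca-high cells (0.33) also passed at an adjusted p below 0.05 with no fold threshold. Without the filter, and with limma-voom, 7 members could be fitted. The share of all genes called follows each count, without the filter and then by limma-voom. Between Sca-high and Sca-low 7 were called (29.4% and 42.2%), and between Sca-high 34a and Sca-high NT 3 (25.8% and 37.7%). For Sca-high 34a minus Sca-high 4 were called (32.4% and 47.8%). The count was 5 for Sca-high NT minus Sca-low (28.1% and 40.2%) and 5 for Sca-high 34a minus Sca-low (38.7% and 54.6%). Ly6c1 and Ly6d had at most 5 reads in each Sca-low library, so a call as higher in Sca-low cells was hardly possible for them. At 1 RPKM in every library only 2 members could be fitted, and the counts were 2 between Sca-high and Sca-low, 0 between Sca-high 34a and Sca-high NT, and 1 in each of the other 4 comparisons. These counts follow from how many members were fitted. The shares of all genes at 1 RPKM in every library, and at an adjusted p below 0.05, are not given here, so those counts are a description. No paired analysis was possible because the columns of the table carry a group and a running number, and not the replicate number of a sample.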

Other observations

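Most family members are GPI-anchored, and 37 other genes of GPI-anchored surface proteins were followed, of which 16 were tested. Between Sca-high and Sca-low cells 4 were called higher and 8 lower, against 19.9% and 20.4% of all genes. The median log2 fold change was -0.62, against 0 over all genes. Gas1, a co-receptor of hedgehog proteins, was higher (3.05 ± 0.102, adjusted p = 2e-10), and Msln, the mesothelial antigen (-3.81 ± 0.12, adjusted p = 1.3e-10), and Cd14, a co-receptor for lipopolysaccharide (-2.32 ± 0.0977, adjusted p = 1.4e-09), were lower. Between Sca-high 34a and Sca-high NT cells 4 were called higher and 5 lower, against 17.5% and 21.4% of all genes. Among the higher ones was Bst2, which tethers budding viruses (1.12 ± 0.187, adjusted p = 0.00025). Among the lower ones were the glypican gene Gpc1 (-1.36 ± 0.0605, adjusted p = 2.7e-09) and Gas1 (-1.73 ± 0.102, adjusted p = 3.5e-08).

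Of 32 genes that make, attach or remodel the GPI anchor, 28 were tested. Between Sca-high and Sca-low cells 2 were called higher and 3 lower by limma, against 19.9% and 20.4% of all genes. Between Sca-high NT and Sca-high cells none was called higher and 2 lower, against 10.4% and 11.1% of all genes. Between Sca-high 34a and Sca-high NT cells 8 were called higher and 3 lower, a share like that of all genes (39%), so the count is no result about the list. Of these genes, Pigk, a subunit of the transamidase that attaches the anchor, was higher (1.16 ± 0.0505, adjusted p = 2.2e-09), and Piga, which acts in the first step of anchor synthesis, was lower (-1.24 ± 0.0694, adjusted p = 2.2e-08).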
